A study of Homo sapiens with 2 samples.

Results

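The S100 proteins are small calcium-binding proteins, and 10 of their genes (S100A2, S100A4, S100A6, S100A8, S100A9, S100A10, S100A11, S100A13, S100A16 and S100P) were followed here in drug resistant sublines of A2780, a human ovarian carcinoma cell line. They were chosen by gene name, with every probe of each gene. This gave 11 of the 41000 probes and 10 of the 30238 gene names on the array, with 2 probes for S100A11 and 1 for every other gene. The A2780CBN line had been selected to 22.2 µM carboplatin, a platinum drug that crosslinks DNA. The A2780CBNDXL line had been selected to carboplatin together with docetaxel, a drug that stabilizes microtubules. The labels give 8.02 µM for the combination, which differs from the terminal dose in the study's methods. In the paper this value is the carboplatin concentration that inhibited this line in the combination, and docetaxel was far lower. Each line was set against cells cultured alongside it without drug, labelled A2780CC in both cases. Doses were raised gradually so as not to pick single clones, in RPMI medium. A pool of 3 RNA isolations made up the 1 sample of a line, which went onto 4 arrays of 2 colours together with its control RNA. A slide carried 1 array of each labelling direction (forward and reverse) per line, and 2 slides were used. Since the arrays repeat the same pool, the SD given below is the error of labelling and hybridization and leaves out the culture, and independent cultures were not compared by any test.

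S100 proteins carry EF-hand loops that bind calcium, and most work as dimers that open a surface for a partner protein once calcium is bound. Inside the cell they bind annexins, cytoskeletal proteins and transcription factors. Some are also released and bind receptors at the cell surface. Most of the genes lie in a cluster on chromosome 1q21, while S100P lies on chromosome 4. S100A10 is the exception in the family, since its loops no longer bind calcium, and it pairs with annexin A2 at the membrane.

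S100A11 was the member with the largest change and the only one read by a pair of probes. The sequences of both are shown because they measure neighbouring stretches of the same transcript. In the coordinates of the files (NCBI36, minus strand) they lie at chr1:150271843-150271902 and chr1:150271784-150271843 and share 1 base. Joined, they give 119 bases with 1 open reading frame, so that both can be read as coding sequence.
S100A11 probe A_23_P126593: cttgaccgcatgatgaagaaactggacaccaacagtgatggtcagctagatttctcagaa
S100A11 probe A_23_P145863: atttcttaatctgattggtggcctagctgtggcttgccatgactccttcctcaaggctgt

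All 10 genes had an entry in a RefSeq promoter table (GRCh38.p14), 6 of them with 1 start site. The 250 bases before the start site are given for the 3 genes that passed the limit for a change in A2780CBNDXL. Capitals mark a GC box, spelled GGGCGG, in the sequences of S100A11 and S100A10. In that of S100A4 they mark a TATA box, which reads TATAAA. Both strands were searched, and neither CCAAT nor the AP-1 letters TGANTCA occurred in these 3 windows.
S100A11 promoter, minus strand, chr1:152037005-152037254: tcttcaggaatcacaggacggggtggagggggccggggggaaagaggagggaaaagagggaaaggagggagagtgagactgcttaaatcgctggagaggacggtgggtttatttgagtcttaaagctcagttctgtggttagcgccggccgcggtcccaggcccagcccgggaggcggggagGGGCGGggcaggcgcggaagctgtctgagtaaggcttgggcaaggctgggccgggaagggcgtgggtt
S100A10 promoter, minus strand, chr1:151993860-151994109: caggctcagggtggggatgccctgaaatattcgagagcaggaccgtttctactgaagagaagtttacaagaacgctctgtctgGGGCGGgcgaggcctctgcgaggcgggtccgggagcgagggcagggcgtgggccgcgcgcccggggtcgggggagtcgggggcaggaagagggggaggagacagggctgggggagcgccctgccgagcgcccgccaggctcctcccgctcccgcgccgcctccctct
S100A4 promoter, minus strand, chr1:153545807-153546056: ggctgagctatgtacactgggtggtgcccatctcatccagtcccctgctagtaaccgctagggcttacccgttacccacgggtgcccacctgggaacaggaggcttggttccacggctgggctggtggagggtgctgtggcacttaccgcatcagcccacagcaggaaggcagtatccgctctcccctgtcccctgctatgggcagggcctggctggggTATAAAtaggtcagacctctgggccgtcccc

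S100A10 and S100A11, which lie close together at one end of the cluster, each had 1 GC box, at -167 and -68 from the start site, and no TATA box. S100A4 had a TATA box at -31 and no GC box. The CpG dinucleotides numbered 24 for S100A10, 15 for S100A11 and 7 for S100A4, against a median of 11 over all 35116 promoters of the same length. Of all these promoters, 42.64% held a GC box, 10.72% a TATA box, 32.01% CCAAT and 6.573% TGANTCA. These matches describe the sequence and were not tested for a role.

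Across the 8 arrays, 59.8% to 67.5% of the spots in a channel were well above the local background, and no spot was saturated. Array 1 of A2780CBNDXL was the noisiest. The median variation between the repeated spots of a control transcript was 29.0% and 32.7% in its green and red channels, against 8.31% to 12.2% on the others. KRT8, KRT18 and PAX8, genes of the epithelial and ovarian carcinoma lineage, were well above background in both channels on all arrays. KRT18 was higher in A2780CBN, at 1.05 ± 0.16, and gave 0.51 ± 0.06 in A2780CBNDXL. EPCAM was higher in both lines, with log2 ratios of 2.07 ± 0.30 and 1.67 ± 0.24 (SD, 4 arrays), and CDH1 was at background.

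Signals are the processed intensities of the files, and a log2 ratio is the resistant line over its control on the same array. A gene was called changed if the mean of its log2 ratios reached 1 in either direction (2-fold), if all 4 arrays had that sign, and if the same channel stood well above background on all 4. All signs rest on the dye labels of the forward arrays. In A2780CBN 4 of the 10 genes met the requirement on background, 1 of which (S100A11) was lower and 0 higher. Of all 17951 genes tested there, 12.6% had changed, and 4.55% were lower. In A2780CBNDXL 6 met it, and S100A4 and S100A11 were higher and S100A10 was lower, that is 3 of 6. Of all 17116 genes tested in that line, 16.9% had changed, 7.70% higher and 9.20% lower. The numbers of S100 genes are too small to call this share particular to the family. Their median log2 ratio was 0.11 over the 4 genes in A2780CBN and -0.10 over the 6 in A2780CBNDXL, beside -0.06 and 0.04 for all genes.

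**Figure D1:**
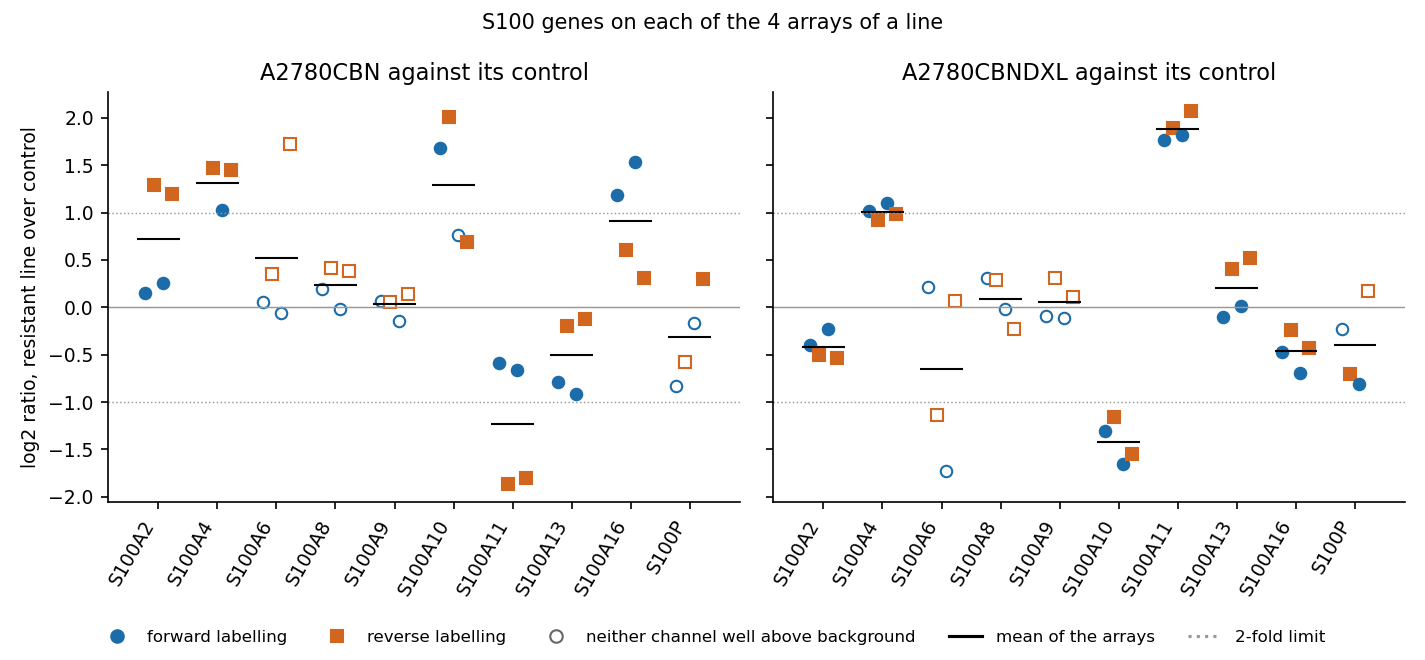
Log2 ratio of resistant line over control for the 10 S100 genes on each array of A2780CBN (left) and A2780CBNDXL (right), with circles for forward and squares for reverse labelling, open symbols where neither channel was well above background, bars for the means and dotted lines at 2-fold. S100A11 lies below 0 on all arrays of A2780CBN, with means of -0.62 and -1.83 in the forward and reverse arrays, and between 1.76 and 2.08 in A2780CBNDXL.

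S100A11 binds annexin A1 and takes part in the control of growth and of membrane repair. It was lower in A2780CBN and higher in A2780CBNDXL. At the brighter probe the A2780CBN signal was 775, 497, 679 and 477 on arrays 1 to 4. The control signal on the same arrays was 1160.4, 1805, 1074 and 1662. The line was below the control on every array, and the ranges of both channels did not overlap. The log2 ratios were -0.58, -1.86, -0.66 and -1.80, with a mean of -1.23 ± 0.70, or 2.34-fold lower. The size depended on the labelling, since the forward arrays alone gave -0.62 and did not pass 2-fold, nor did normexp background correction with loess normalization, which gave -0.74.

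In A2780CBNDXL the S100A11 signal was 7256, 8913, 6878 and 8035. The control signal was 2141, 2408, 1951 and 1906. Every line value was above every control value, and the log2 ratios of 1.76, 1.89, 1.82 and 2.08 averaged 1.89 ± 0.14, or 3.70-fold higher. A change of this size or larger was seen in 6.77% of all genes tested in that line. The neighbouring S100A11 probe gave -1.31 ± 1.02 in A2780CBN and 2.00 ± 0.10 in A2780CBNDXL, so that both probes placed the gene on opposite sides in the lines. In A2780CBN this probe also gave a smaller decrease with forward (-0.43) than with reverse labelling (-2.19).

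Of the 16131 genes tested in both lines, 1.83% passed the limit in opposite directions, and S100A11 was the 1 S100 gene of 4 that did. RNA of a culture is a mixture, and fewer expressing cells cannot be told apart from less RNA per cell in any of these values.

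S100A4 is the metastasin of the family, a protein that binds non-muscle myosin and is known for its part in cell motility. It was bright in both lines and was higher than the control on every array measured. In A2780CBN the spot on array 1 was marked as uneven by the scanner software and was left out. On arrays 2 to 4 the line gave 9932, 8566 and 9282, and the control 3594, 4215 and 3393. The line signal was above the control signal throughout, with log2 ratios of 1.47, 1.02 and 1.45 and a mean of 1.31 ± 0.25 on 3 arrays. With the marked spot kept, an alternative chosen after seeing the data, the mean was 1.26 and S100A4 passed the limit.

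In A2780CBNDXL the S100A4 signal was 23965, 19861, 17254 and 17533 in the line. It was 11858, 10515, 8016 and 8829 in the control. The ranges did not overlap and the log2 ratios of 1.02, 0.92, 1.11 and 0.99 lay close together. Their mean of 1.01 ± 0.08 was just past the limit. It was 0.97 without array 3, 0.97 on slide 1 alone, 0.95 on the reverse arrays alone and 0.96 with either of 2 other background corrections, which ended the call each time. A 3-way ANOVA did not call S100A4 in A2780CBNDXL either, with or without genes that had a dye or slide term.

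S100A10 forms a tetramer with annexin A2 that binds plasminogen and its activators at the cell surface. It was dim. In A2780CBN the line signal was 27.0, 31.2, 15.95 and 27.9 and was well above background on 3 arrays. The control signal was 8.40, 7.75, 9.43 and 17.2 and did not rise well above background. The measured log2 ratio of 1.29 ± 0.66 is therefore only a bound, at least 1.15-fold higher, and the gene did not meet the requirement for a call. Without array 3 it did, at 1.46.

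In A2780CBNDXL the direction was the opposite. The S100A10 line signal was 23.6, 34.9, 27.4 and 31.6, and the control signal was 58.5, 78.1, 86.5 and 92.1. The control was above the line on every array, with log2 ratios of -1.31, -1.16, -1.66 and -1.54 and a mean of -1.42 ± 0.22, or 2.67-fold lower. The line channel was well above background on 3 arrays and the control channel on all 4. The line signals of both lines overlapped, while the control signals did not. With normexp correction, which compresses dim signals, the log2 ratio of S100A10 in A2780CBNDXL was -0.27 and the call was lost.

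**Figure D2:**
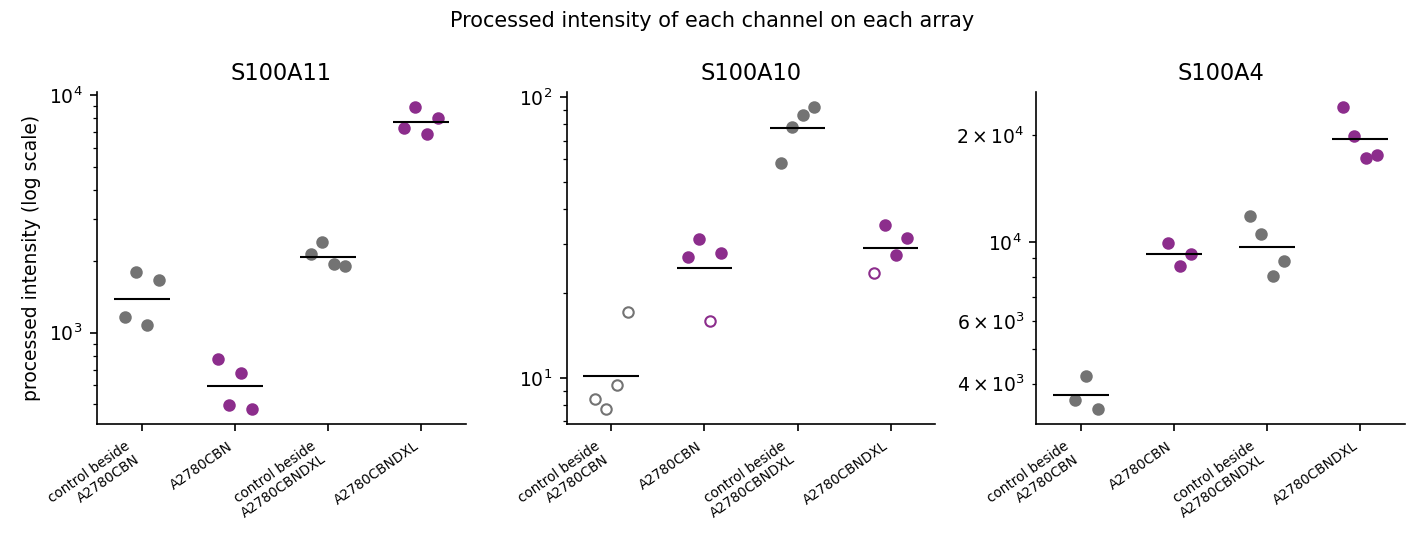
Processed intensity (log scale, not scaled between arrays) of S100A11, S100A10 and S100A4 in the control and resistant line channels of each array, with bars at the mean of the log2 values and open circles for values not well above background. The S100A11 signal is lowest in A2780CBN (477 to 775) and highest in A2780CBNDXL (6878 to 8913), whereas for S100A10 the control channels stand apart (7.75 to 17.2 and 58.5 to 92.1).

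The other measured members stayed within the 2-fold limit in both lines. S100A13, which takes part in the release of FGF1 and interleukin 1 alpha from cells, was bright in all channels. Its log2 ratios were -0.79, -0.19, -0.92 and -0.12 in A2780CBN, a mean of -0.50 ± 0.41, and -0.10, 0.40, 0.01 and 0.52 in A2780CBNDXL, a mean of 0.21 ± 0.30. The first line was below its control on all arrays, and the second fell on both sides of 0.

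S100A16, a broadly expressed member, gave 1.18, 0.61, 1.53 and 0.31 in A2780CBN and -0.47, -0.24, -0.69 and -0.43 in A2780CBNDXL. The means were 0.91 ± 0.55 and -0.46 ± 0.18, so that the line was above its control on all arrays of the first and below it on all of the second, without a call in either. Without array 2 or array 4, S100A16 passed the limit in A2780CBN, at 1.01 and 1.11. Against the control channel of the opposite line S100A16 gave -0.05 in A2780CBN and 0.49 in A2780CBNDXL, so that its direction was lost in the first and turned in the second. S100A2, which is expressed in squamous epithelium, followed the same pattern. Its log2 ratios were 0.15, 1.29, 0.26 and 1.20 in A2780CBN, a mean of 0.72 ± 0.60, and -0.40, -0.50, -0.23 and -0.54 in A2780CBNDXL, a mean of -0.42 ± 0.14. Against the control channel of the opposite line S100A2 gave 0.14 and 0.17, which turned its direction in A2780CBNDXL. With S100A11, 3 of the 4 members tested in both lines had opposite signs throughout the arrays of the lines, as did 14.2% of all genes.

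In A2780CBN the spread of these genes followed the labelling. The forward arrays minus the reverse arrays gave 1.21 for S100A11, 1.76 at its other probe, -1.04 for S100A2, 0.89 for S100A16 and -0.69 for S100A13. The median size of this difference over all genes was 0.35, and it was over 1 in 7.31% of them. In A2780CBNDXL the largest among the 6 tested members was -0.51, for S100A13, beside a median of 0.32 for all genes. The sizes in A2780CBN are thus less precise than those in A2780CBNDXL. In a 3-way ANOVA of line, dye and slide, S100A11 in A2780CBN had a dye or slide term under 0.05. Which of these terms it was is not given here, and the part of the dye in these sizes was not tested further.

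S100A6, S100A8 and S100A9 were not well above background in either channel on any of the 8 arrays. S100A6, or calcyclin, binds CACYBP and annexins. S100A8 and S100A9 form calprotectin, which is abundant in neutrophils and monocytes. Their signals lay between 4.03 and 15.7, and their ratios are given no direction. S100P, which was first found in placenta and acts through the receptor AGER, was well above background on 1 array of A2780CBN in the line channel and on 2 arrays of A2780CBNDXL in the control channel, which is too few for a call. The probes of S100A6 and S100A9 span 431 and 2270 bases of the genome with 60 bases of sequence, so that both cross an intron. Of 6 leukocyte markers, PTPRC, LYZ and FCGR3B were at background in both lines. CD14 and CD68 were above background without a call, and ITGAM was higher in A2780CBNDXL, with a log2 ratio of 1.87 ± 0.51.

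Since the channels of the 2 lines can be set against each other on arrays of the same slide and labelling, the differences were divided into those of the resistant lines and those of the controls. The channels were first scaled to a common intensity distribution. For S100A11 the line channels differed by 3.58 ± 0.26 on the log2 scale, higher in A2780CBNDXL, and by 3.75 ± 0.29 at the other probe. The control channels differed by 0.47 ± 0.57 and 0.44 ± 0.82, with both signs among the arrays. S100A11 therefore differed between the resistant lines themselves by more than its spread.

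S100A10 gave the reverse picture. Its line channels differed by 0.13 ± 0.37, with both signs among the arrays. Its control channels differed by 2.83 ± 0.36, higher beside A2780CBNDXL on all 4 arrays, which was 1 of 5 members tested where 4.68% of all genes passed. The signal beside A2780CBN was not above background, so this size too is uncertain. Set against the control channel of the opposite line, the log2 ratio of S100A10 was -1.55 in A2780CBN and 1.42 in A2780CBNDXL, which turns both directions. Which control stood closer to the parental cells could not be told from these arrays.

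For S100A4 the control channels differed by 1.04 ± 0.10 and the line channels by 0.73 ± 0.28 on the 3 matched arrays, both higher on the arrays of A2780CBNDXL. The difference of the 2 ratios was -0.31 ± 0.34. With the control channel of the opposite line S100A4 gave 0.28 in A2780CBN and 2.04 in A2780CBNDXL. For S100A13 the line channels differed by 1.01 ± 0.41 and the control channels by 0.29 ± 0.34. S100A11 and S100A13 were the 2 of 4 members whose line channels passed 2-fold, where 16.5% of all 17083 genes did. The S100A13 difference was just past the limit and ran from 0.54 to 1.42 among the arrays. S100A2 and S100A16 differed between the lines past 2-fold when ratios were compared, by -1.14 ± 0.72 and -1.37 ± 0.70, as did S100A11 by 3.11 ± 0.81, that is 3 of 4 members against 16.6% of all genes. Without array 2 or array 4 the difference of S100A2 was -0.93 and -0.94 and no longer passed. For S100A2 and S100A16 the line channels alone did not pass (-0.56 ± 0.47 and -0.41 ± 0.27), and the control channels moved the other way by 0.58 ± 0.25 and 0.95 ± 0.66.

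**Figure D3:**
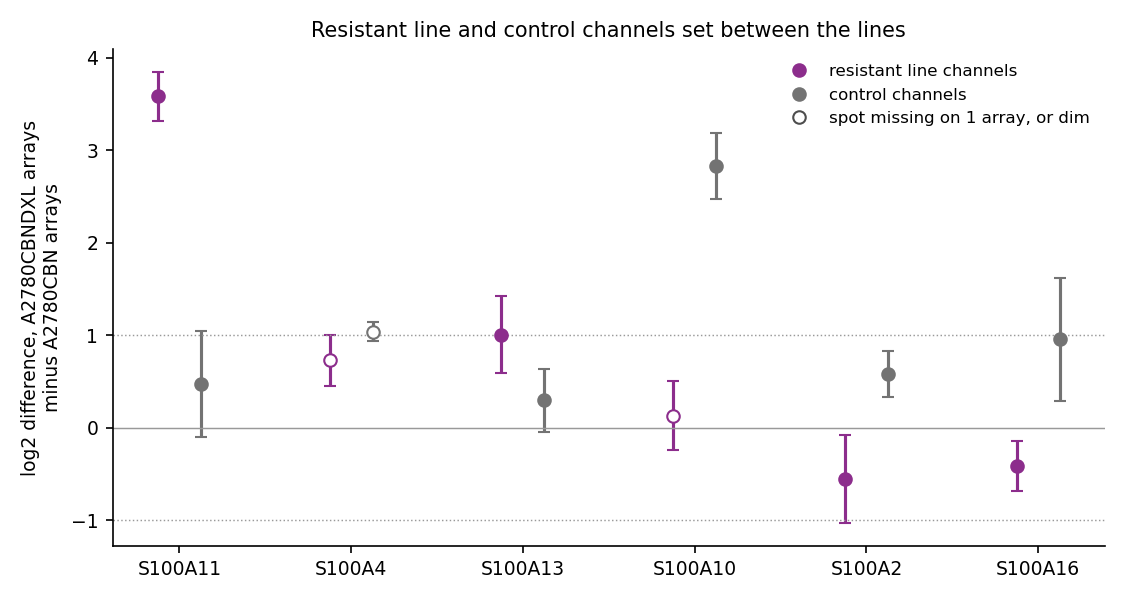
Log2 difference between the arrays of A2780CBNDXL and those of A2780CBN for the resistant line channels (purple) and the control channels (grey) of the 6 S100 genes measured in at least 1 line, as means with SD over arrays matched by slide and labelling. S100A11 differs in the line channels (3.58) and S100A10 in the control channels (2.83).

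Among the 11 other S100 genes looked for, 10 were on the array, and none passed the limit. In A2780CBN 3 met the requirement on background (S100A1, S100A3 and S100A5) and in A2780CBNDXL 2 did (S100A1 and S100A3). S100A1, the form of heart and skeletal muscle, gave -0.59 ± 1.02 and -0.13 ± 0.14, with forward and reverse means of 0.29 and -1.47 in A2780CBN. S100A7A, S100A12, S100A14, S100B, S100G and S100Z were at background in both lines. S100A7, or psoriasin, was well above background on 3 of 4 arrays in each channel of both lines and could not be called. Its log2 ratios of -0.56 ± 1.42 and 0.56 ± 1.34 differed in sign between the labellings, with forward and reverse means of 0.59 and -1.72 in A2780CBN and of 1.69 and -0.58 in A2780CBNDXL. S100A7L1 was the 1 name not found. S100A11 was thus the only S100 gene of the 20 on the array that passed the limit in both lines, while S100A4 did so with the marked spot kept.

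The partners and receptors of S100 proteins reported here comprised 20 genes. In A2780CBN 16 were tested, of which 1 was higher and 2 lower, where 12.6% of all genes had changed. In A2780CBNDXL 14 were tested, of which 0 were higher and 6 lower, where 16.9% of all genes had changed and 9.20% were lower. ANXA2 and BSG were not among these 14, each for a spot marked as an outlier on 1 array. Their log2 ratios on the other arrays were 1.27 ± 0.09 and 0.98 ± 0.52. ANXA2 was past 2-fold there, so the absence of higher partners rests in part on this filter. BSG was not past 2-fold, and its other probe gave 0.74 ± 0.53 on all 4 arrays, without a call. The median log2 ratios of the tested partners were 0.10 and -0.50, beside -0.06 and 0.04 for all genes. MYH9, the heavy chain of non-muscle myosin that S100A4 binds, gave 0.25 ± 0.51 and 0.59 ± 0.18 and was not called.

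ANXA1, the annexin bound by S100A11, was the lowest in both lines, at -6.70 ± 0.21 and -5.41 ± 0.12. It was thus lower on all arrays both where S100A11 was lower and where it was higher. ANXA2, the partner of S100A10, gave 0.61 ± 0.13 in A2780CBN. In A2780CBNDXL its brightest probe gave 1.27 ± 0.09 on 3 arrays, with 1 spot marked as an outlier, and its other probes gave 1.36 ± 0.07 and 1.15 ± 0.20 on all 4. The partner was therefore higher in the line in which S100A10 was lower than its control.

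AHNAK, a very large scaffold protein that binds the complex of S100A10 and annexin A2, was higher in A2780CBN, at 2.94 ± 0.23 at its brightest probe. Of its 5 probes 4 were tested in that line, and another of these was at least 3.23-fold higher, since its control signal did not rise well above background. The others gave 2.23 ± 0.76, with the control well above background on 1 array, and 0.81 ± 0.60. In A2780CBNDXL AHNAK gave 0.61 ± 0.19 at the brightest probe, and another probe gave -0.85 ± 0.22, on the other side of 0.

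PLAU, PLAUR and PLAT, the 3 genes of the list that belong to the plasminogen system, were lower in A2780CBNDXL. PLAU, the urokinase gene, gave -3.44, -3.95, -3.51 and -3.98 on arrays 1 to 4, a mean of -3.72 ± 0.29. Its receptor PLAUR gave -1.18 ± 0.25. PLAT, the tissue activator, was at least 2.20-fold lower, since its line signal was at background on every array. In A2780CBN these 3 genes stayed within the limit, at -0.75 ± 0.26 for PLAU, -0.15 ± 0.04 for PLAUR and 0.25 ± 0.23 for PLAT.

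EZR, a linker of actin and membrane, was lower in A2780CBNDXL at both of its probes, with log2 ratios of -1.01 ± 0.11 and -1.03 ± 0.27. SYT1, a calcium sensor that takes part in the release of FGF1 with S100A13, was lower in both lines, by at least 1.64-fold in A2780CBN and at least 2.57-fold in A2780CBNDXL, with no line signal above background. CACYBP, the partner of S100A6, gave -0.66 ± 0.03 and -0.88 ± 0.06. The receptor AGER gave -0.41 ± 0.12 and 0.41 ± 0.06, and FGF1, IL1A and CD36 were at background in both lines.

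**Figure D4:**
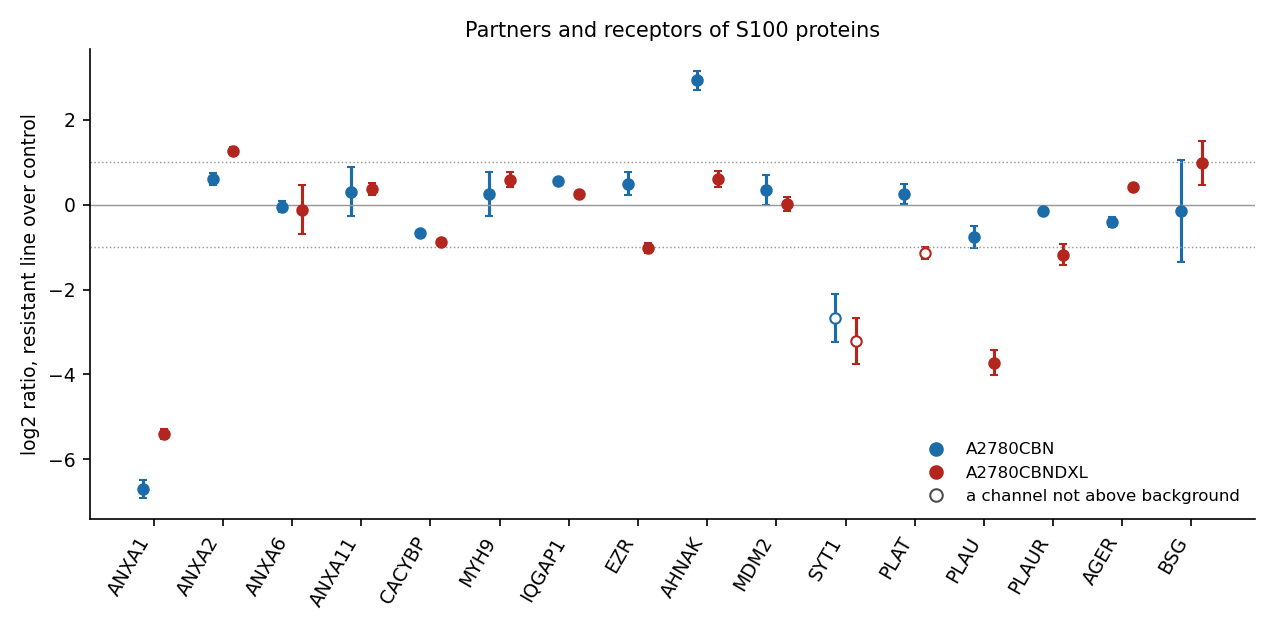
Mean log2 ratio with SD of the 16 partners and receptors with a usable signal in at least 1 line, in A2780CBN (blue) and A2780CBNDXL (red), with open circles where 1 channel never rose well above background and dotted lines at 2-fold. ANXA1 lies lowest in both lines, AHNAK is higher in A2780CBN (2.94) and PLAU lower in A2780CBNDXL (-3.72).

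The genes around the S100 cluster showed few changes. In the coordinates of the files (NCBI36), 76 other genes on the array had their brightest probe at chr1:149722044-152370959. In A2780CBN 44 were tested and 1 passed, and in A2780CBNDXL 38 were tested and 3 passed, where 12.6% and 16.9% of all genes did. RAB13, a small GTPase of vesicle transport, was higher in both lines, at 1.07 ± 0.21 and 1.61 ± 0.25. In A2780CBNDXL GATAD2B, a subunit of a chromatin remodeler, was higher at 1.11 ± 0.70, and CGN, a protein of tight junctions, was lower at -1.18 ± 0.17. The median log2 ratio of these neighbours was -0.21 in A2780CBN and 0.19 in A2780CBNDXL.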

How the data were processed

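The deposited files are tables of Agilent Feature Extraction, written by version 10.7.1.1 (slide 1) and version 10.7.3.1 (slide 2). They hold a processed intensity per channel, from which the authors' software had subtracted the background and removed the dye bias of the array. The deposited raw and background-subtracted intensities served for alternatives only. The labels of the reverse arrays carry the dye entries of the forward arrays, and these arrays were turned over as their name states. The A2780DXL line was not analysed here.

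Outlier spots were dropped and a probe's remaining spots were averaged on each array. The mean log2 ratio gave both labelling directions equal weight, except that a gene with a missing spot was averaged over its 3 arrays. A gene with several probes was read from its brightest one over all arrays. Channels were scaled between arrays by Aquantile for comparisons of channels and for lower bounds. Such a bound compares the bright channel with, on each array, the larger of the lowest signal well above background and the dim probe's own. Aquantile was changed to keep probes with a missing spot once S100A4 was seen to be lost. The S100 genes, the lists and the tests were chosen with earlier results of these data known. All 10 members and all other S100 genes looked for are named. 1 gene of the partner list as first set is not reported here, and partners within the limit are in part given only as counts. Of the other lists, genes past the limit are named, at most 8 of a list by size, with others needed to say what was not measured. ANXA2, BSG, AGER, CACYBP and MYH9 were added after their values were seen.

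Alternatives were a 3-way ANOVA of line, dye and slide after the study's methods, fitted without an array term on scaled channels (the study's exact input is not given in the sources used here), limma, and other normalizations, filters, limits and subsets of arrays. On simulated arrays with 200 genes changed 4-fold, the 2-fold rule recovered 200 among 25052 probes in A2780CBN and limma 182. Among 23802 probes in A2780CBNDXL they recovered 200 and 187. The ANOVA recovered 181 and 76, so it misses many changes in A2780CBNDXL. Its scaled input was chosen after its simulated recovery had been seen. No method made a false call. The unchanged genes were drawn around no change with the largest spreads capped, so false calls could hardly arise. This gives no error rate for the real arrays. All 200 genes were set at 4-fold, and recovery of genes close to the 2-fold limit was not tested. Precision is limited by the number of arrays, whose SD leaves out any variation between cultures. The R version was 4.3.3 with limma 3.58.1. Python was at 3.11.15, with scipy 1.17.1, pandas 2.3.3, numpy 2.4.6 and, for figures, matplotlib 3.10.9.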

Additional observations from a re-analysis of the deposited data

Results flagged for a closer look

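S100A2, S100A10, S100A11 and S100A16 lay on one side of 0 on all 4 arrays of A2780CBN and on the other side on all 4 arrays of A2780CBNDXL, and these differences between the lines were not tested, since each line is 1 sample. The log2 ratios in A2780CBN and A2780CBNDXL were 0.72 and -0.42 for S100A2, 1.29 and -1.42 for S100A10, and 0.91 and -0.46 for S100A16. S100A11 gave -1.23 and 1.89 at the brighter probe and -1.31 and 2.00 at the other. Of all genes tested in both lines, 14.2% showed such opposite signs. The S100A10 probe was not well above background in the control of A2780CBN.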

How the results depend on the processing

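S100A11 in A2780CBNDXL kept its call under every alternative run, with log2 ratios of 1.77 to 2.36. In A2780CBN, where 1 S100 gene had changed (S100A11), the count was 0 with a 3-fold limit, with normexp correction and loess, and with the ANOVA less genes with a dye or slide term under 0.05. It was 2 with background-subtracted signals (S100A16 added), with the control of the other line (S100A10 lower), without a filter on dim probes (S100A10 higher), on slide 1 alone (S100A10), on slide 2 alone (S100A4) and with marked spots kept (S100A4), 3 with a 1.5-fold limit and 4 on the reverse arrays alone. On the forward arrays alone 1 gene passed, which was S100A16 in place of S100A11. Leaving out 1 array gave 2 each time, adding S100A4, S100A16, S100A10 or S100A16 without array 1, 2, 3 or 4. In A2780CBNDXL the count of 3 became 1 (S100A11) with a 3-fold limit and with normexp and loess. It was also 1 with the control of the other line, where 4 S100 genes were tested in place of 6. S100A4 gave 2.04 there but was not tested, for its missing spot in A2780CBN. S100A10 did not meet the requirement on background. The count was 2 without S100A4 with both forms of the ANOVA, with background-subtracted signals, on slide 1 alone and on the reverse arrays alone. It was 2 without S100A10 with both channels required above background. It was 2 or 3 without 1 array. The ratios of 3 genes differed 2-fold between the lines, and 1 did so with normexp and loess. Leaving out 1 array gave 2 to 4. Of 378 values recomputed for the S100 genes, 355 moved by less than the spread between arrays and 22 by more. 1 called value reversed, S100A10 in A2780CBNDXL, from -1.42 to 1.42 against the control of the other line, whose signal was at background. The 355 are no measure of robustness. With all 4 arrays measured, leaving out 1 or 2 cannot move a mean by more than their spread. The 355 also hold genes at background and S100A11 in A2780CBN, which lost its call on the forward arrays alone (-1.23 to -0.62). Over all genes, normexp and loess reduced the counts from 2253 to 605 and from 2893 to 1174, a 3-fold limit to 1121 and 1467 and the ANOVA without dye or slide terms to 1248 and 1858, and a 1.5-fold limit raised them to 4860 and 5699. The cause of these changes was not tested. Line and control were paired within each array, and the lines were matched by slide and labelling. No test across independent cultures was possible, because each line is 1 sample. Values of dim genes, S100A10 above all, are limited by the signal over background, and those of A2780CBN by the difference between labellings.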
